A study of Homo sapiens with 6 samples.

Results

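Keratins are the intermediate filament proteins of epithelial cells. This report covers 10 keratin genes, named by symbol (KRT5, KRT7, KRT8, KRT14, KRT17, KRT18, KRT19, KRT80, KRT81 and KRT86), of 60612 genes with a value. The RNA of MDA-MB-231, an established human cell line of triple-negative breast cancer (TNBC), was sequenced at day 3. Sh-NC cells carried a control short hairpin RNA and are given the genotype WT, and Sh-YAP1 cells carried a hairpin against YAP1, the transcriptional co-activator of the Hippo pathway. No drug or other treatment is given for either group, and each group had 3 libraries. The Sh-YAP1 libraries are not assigned to separate hairpins, so an effect of the hairpin outside YAP1 cannot be told apart from the loss of YAP1. The labels do not say whether the libraries of a group came from separate cultures, so the p-values measure the spread between these libraries, which may be technical.

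A keratin filament is built from pairs of a type I (acidic) and a type II (basic) keratin, and neither type forms filaments alone. KRT8 with KRT18, joined by KRT19 and KRT7, is the set of simple epithelia and of luminal breast cells. KRT5 with KRT14 is the set of basal and myoepithelial cells, where KRT17 is also found, and these genes are used as markers of basal-like breast cancer. KRT80 is a type II keratin found in many epithelia, and KRT81 and KRT86 are type II keratins of hair that some carcinomas also express. Fibroblasts and other mesenchymal cells use vimentin (VIM) in place of keratins.

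Expression is given in FPKM, a fragment count scaled by transcript length and library total, which allows levels of different genes to be compared per length. The value of a gene is the sum over its transcripts, and values of single libraries are given in the order of replicates 1, 2 and 3. The depth of the libraries is unknown, so no counting interval is given and a listed 0 has no upper limit. From 13037 to 13219 genes reached 1 FPKM in a library, and libraries correlated within groups (Pearson's r across genes 0.992 to 0.993) slightly more than between groups (0.989 to 0.991). YAP1, the targeted gene, was at 22.9 to 28.1 FPKM in the Sh-NC libraries and at 2.58 to 3.35 FPKM in the Sh-YAP1 libraries, in the direction of the labels. Values of marker genes are given next, and the epithelial markers outside the keratins reached at most 3.27 FPKM. CDH1, which encodes E-cadherin, was at 0.02 to 0.49 FPKM and EPCAM, an epithelial surface protein, at 2.43 to 3.27 FPKM over the 6 libraries. CLDN4, a tight junction gene, was at 0.69 to 2.00 FPKM, while VIM was at 1645 to 2303 FPKM. ESR1 and PGR, the hormone receptor genes, were at or below 0.07 FPKM in each library, while ERBB2, which encodes the receptor HER2, was at 14.3 to 18.1 FPKM.

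The sequences of some keratins are close enough to share reads, and this bears on how their values can be read. In GENCODE 29 (GRCh38), the coding sequences of KRT81 and KRT86 were 94.2% identical over 1457 aligned bases, the highest of all pairs of the 10 genes. The next was KRT14 with KRT17 at 85.2%.

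Of the 50-base windows of the KRT81 coding sequence, 57% occur exactly in a transcript of another gene, on either strand, and 49.1% of all its windows occur in KRT86. For KRT86 the shares were 56.7%, and 51.1% in KRT81. The share was 45.5% for KRT8, whose pseudogene KRT8P3 holds 26.6% of the windows, and 57.9% for KRT18, with 26.2% in annotated transcripts of KRT8. KRT19 and KRT80 stood apart, with 2.08% and 1.22% of their windows shared. The values of KRT81, KRT86, KRT8 and KRT18 are therefore uncertain to the extent that fragments were split between copies, while those of KRT19 and KRT80 rest mostly on their own sequence.

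**Figure D1:**
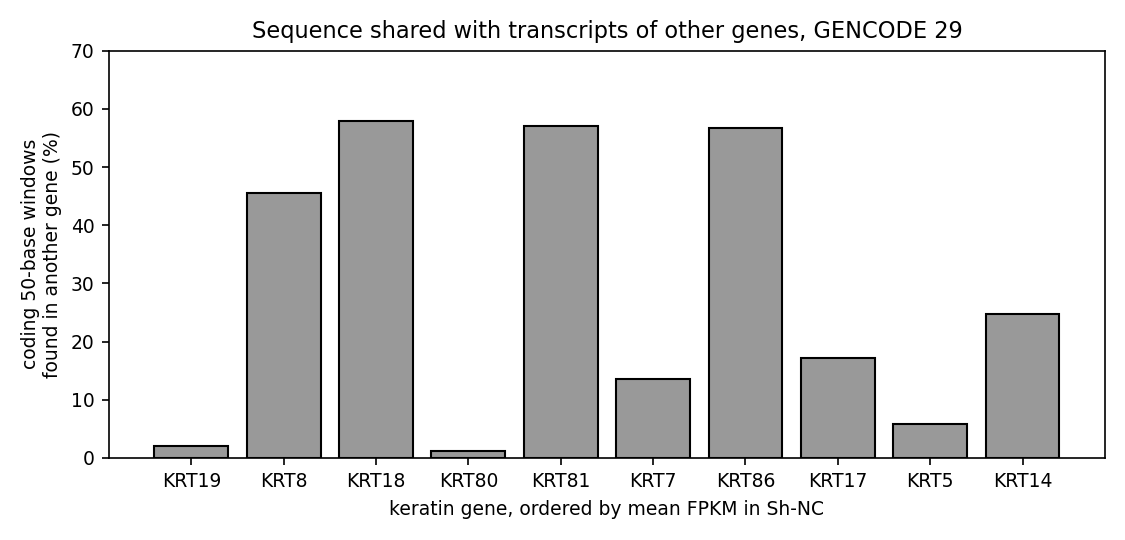
Share of the 50-base windows of each keratin's coding sequence (y axis, percent) that is found exactly, on either strand, in a transcript of another gene in GENCODE 29. KRT19 (2.08%) and KRT80 (1.22%) have the lowest bars, and KRT18, KRT81 and KRT86 lie between 56.7% and 57.9%.

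The first question was which keratins the Sh-NC cells hold. MDA-MB-231 cells held the simple keratins KRT19, KRT8 and KRT18 at high levels and almost no KRT5, KRT14 or KRT17. Together these 3 genes made up 84.3% ± 1.72 (SD, n = 3) of the FPKM of the 10 keratins in Sh-NC, which summed to 537 ± 37.0 FPKM (SD, n = 3). VIM alone was at 3.85 ± 0.89 times this sum. The basal keratins KRT5, KRT14 and KRT17 reached at most 0.39 FPKM in any library.

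KRT19, a type I keratin without the tail domain of other keratins, was the highest in Sh-NC. It was at 170.8, 193 and 166 FPKM in the Sh-NC replicates, and ranked 318 of the 14770 genes tested by its Sh-NC mean. KRT8, the type II partner of simple epithelia, was at 162, 164 and 129.9 FPKM. KRT18, the type I partner of KRT8, was at 125.9, 123.5 and 122.7 FPKM, the tightest of the high keratins. The difference of 24.5 FPKM between the means of KRT19 and KRT8 was smaller than the sum of their SDs (34.0 FPKM), although their ranges did not overlap. KRT8 and KRT18 differed by 28.2 FPKM, more than the sum of their SDs (21.1 FPKM).

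KRT80 followed at 33.5, 56.4 and 51.9 FPKM in the Sh-NC replicates, with replicate 1 well below the others. KRT81 was at 19.8, 20.8 and 16.8 FPKM and KRT7, a simple type II keratin, at 18.5, 16.1 and 14.8 FPKM. The ranges of KRT81 and KRT7 overlapped and their order is not resolved. KRT86 was at 1.11, 1.27 and 1.14 FPKM, far below KRT81 in all 3 libraries.

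KRT5, KRT14 and KRT17 were close to 0. KRT17 was at 0, 0.39 and 0.08 FPKM in the Sh-NC replicates and KRT5 at 0.08, 0.30 and 0 FPKM. KRT14 was at 0.02, 0.13 and 0 FPKM. Replicate 2 was the highest of the Sh-NC libraries for each of these 3 genes. The differences between neighbours in this order (KRT17, KRT5, KRT14) were smaller than the sum of their SDs. These 3 genes were below the mean of 0.5 FPKM required for a test, and so 7 of the 10 keratins were tested.

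**Figure D2:**
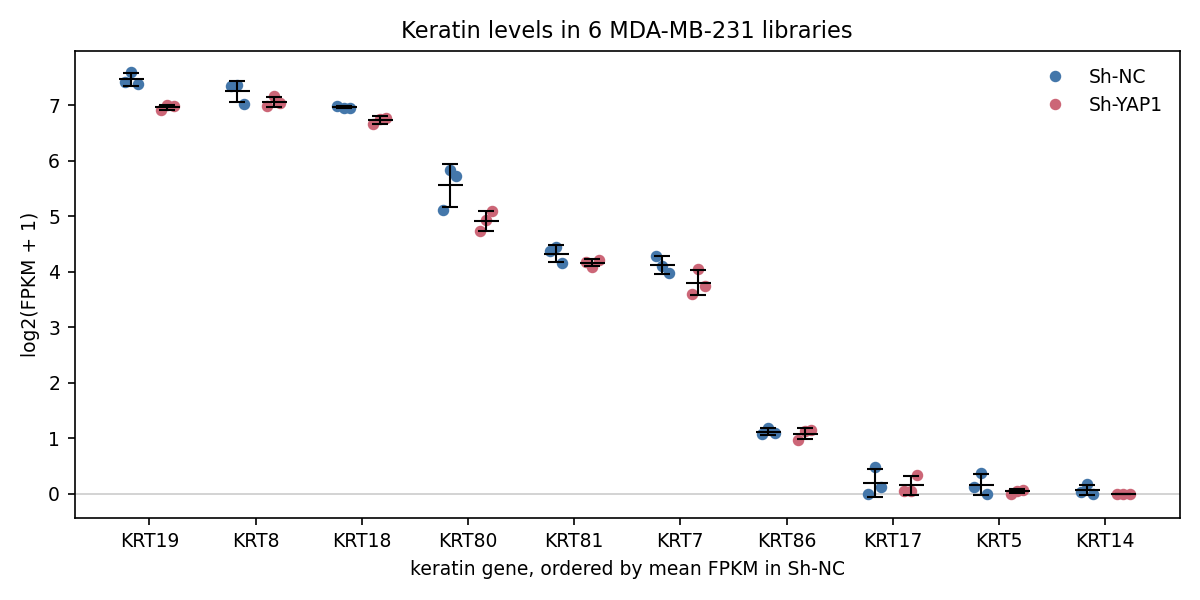
Level of each keratin, as log2(FPKM + 1), in the 3 Sh-NC (blue) and 3 Sh-YAP1 (red) libraries, with genes ordered by their mean FPKM in Sh-NC. Points are libraries, and the bars give the mean and SD of each group. KRT19, KRT8 and KRT18 lie at the top, KRT5, KRT14 and KRT17 near 0, and for KRT19, KRT18 and KRT80 the Sh-YAP1 points lie below all Sh-NC points.

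The second question was how the keratins change when YAP1 is knocked down. KRT19 was downregulated in Sh-YAP1, and it was the only one of the 7 keratins tested to pass an adjusted p of 0.05. KRT18 and KRT80 were lower in each Sh-YAP1 library than in any Sh-NC library but did not pass. At an unadjusted p under 0.05 were 3 of the 7 keratins and 21.9% of all genes. KRT8, KRT7, KRT81 and KRT86 overlapped between the groups. KRT5, KRT14 and KRT17 stayed at or below 0.27 FPKM in Sh-YAP1. In bulk RNA, fewer cells with a transcript and less of it per cell cannot be told apart.

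KRT19 was at 119.99, 126.97 and 125.5 FPKM in the Sh-YAP1 replicates, against 166 FPKM in the lowest Sh-NC library. The groups were far apart, and the Sh-YAP1 libraries were closely spaced. The mean fell from 176.8 ± 14.6 to 124.2 ± 3.69 FPKM (SD, n = 3 each), which is 29.8% lower. As a log2 fold change of FPKM + 1 this was -0.50 with a standard error of 0.078, and limma gave an adjusted p of 0.0273 (Benjamini-Hochberg, over all genes tested). Of all genes tested, 3.38% had an adjusted p under 0.05, and 1.62% did and were lower in Sh-YAP1. The call for KRT19 was not held when any of the 6 libraries was left out (adjusted p 0.0588 to 0.0944, limma), nor with the replicate number as a block (adjusted p = 0.130, limma) or with no filter on low values (adjusted p = 0.0575, limma), while its log2 fold change stayed between -0.55 and -0.44 in all 16 alternatives. The two-sided exact permutation p of KRT19 was 0.1, the smallest that 3 libraries against 3 allow.

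KRT18 was at 99.9, 107.6 and 109 FPKM in the Sh-YAP1 replicates. All 3 values were below the lowest Sh-NC library (122.7 FPKM). The means were 124.0 ± 1.68 (Sh-NC) and 105.5 ± 4.90 FPKM (Sh-YAP1; SD, n = 3 each). The log2 fold change was -0.23 (95% interval -0.38 to -0.08, adjusted p = 0.102, limma and Benjamini-Hochberg).

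KRT80 was at 25.5, 29.7 and 33.2 FPKM in the Sh-YAP1 replicates. The highest of these was just under Sh-NC replicate 1 (33.5 FPKM), so the groups did not overlap but nearly met. Its log2 fold change of -0.64 was the largest of the 7 keratins, with the widest interval (95% interval -1.13 to -0.15, adjusted p = 0.142, limma and Benjamini-Hochberg). Without Sh-NC replicate 1 the log2 fold change was -0.86 (adjusted p = 0.0685, limma) and without Sh-NC replicate 2 it was -0.49 (adjusted p = 0.300, limma).

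The other simple keratins were lower in the mean without separation of the groups. KRT8 was at 125.6, 142.9 and 130.2 FPKM in the Sh-YAP1 replicates, and Sh-NC replicate 3 (129.9 FPKM) lay among these values. Its log2 fold change was -0.19 (95% interval -0.45 to 0.07, adjusted p = 0.366, limma and Benjamini-Hochberg). This value of KRT8 was -0.30 without Sh-NC replicate 3 (adjusted p = 0.140, limma) and -0.12 under quantile normalization (adjusted p = 0.528, limma). KRT7 was at 11.2, 15.6 and 12.4 FPKM in Sh-YAP1, where replicate 2 reached into the Sh-NC range. The log2 fold change of KRT7 was -0.32 (95% interval -0.65 to 0.02, adjusted p = 0.246, limma and Benjamini-Hochberg).

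The hair keratins had the smallest log2 fold changes of the 7 in the main comparison. Under quantile normalization that of KRT8 (-0.12) was smaller in size than that of KRT81 (-0.16). KRT81 was at 17.2, 16.1 and 17.6 FPKM in Sh-YAP1, with Sh-NC replicate 3 (16.8 FPKM) in the same range, and its log2 fold change was -0.16 (95% interval -0.39 to 0.07). For KRT81 it was -0.24 without Sh-NC replicate 3 and -0.099 without Sh-NC replicate 2. KRT86 was at 0.95, 1.18 and 1.22 FPKM in Sh-YAP1, and its log2 fold change was -0.04 (95% interval -0.29 to 0.21). The sign of KRT86 turned to 0.02 without Sh-YAP1 replicate 1. With KRT81 and KRT86 summed to 1 value, as their sequences are hard to part, the direction of KRT81 was kept (log2 fold change -0.15).

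**Figure D3:**
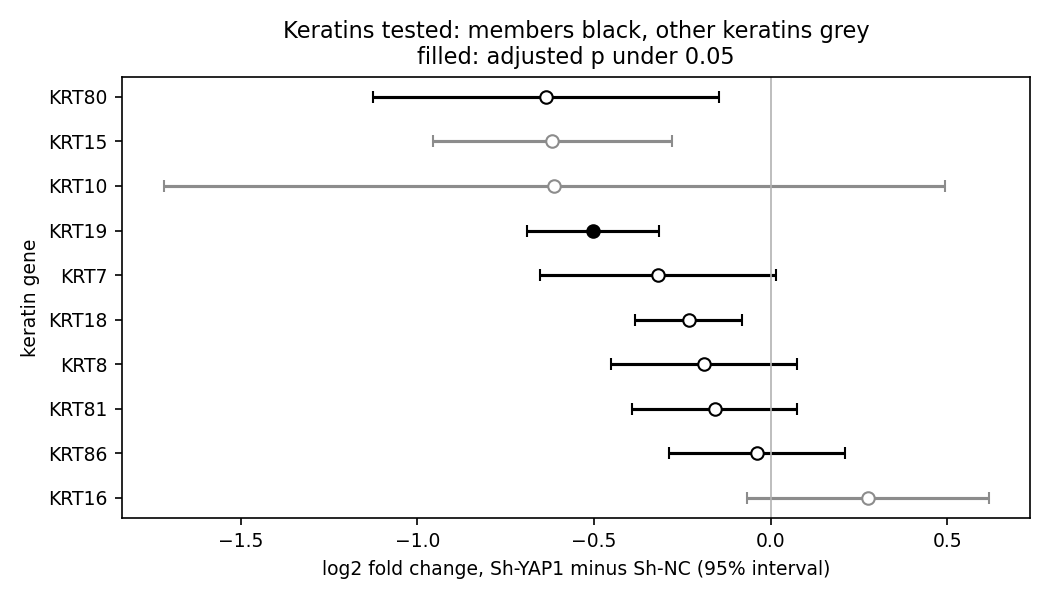
Log2 fold change on the log2(FPKM + 1) scale, Sh-YAP1 minus Sh-NC, with 95% intervals from limma, for the 7 keratins of the list that were tested (black) and the 3 other keratins that were tested (grey). KRT19 is the filled point, at -0.50, and the intervals of KRT18 and KRT80 also lie below 0 although their adjusted p-values were 0.102 and 0.142.

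Counted together, all 7 keratins tested had a log2 fold change below 0, against 50.2% of all genes tested. The 7 are not independent, since KRT81 and KRT86, and KRT8 and KRT18, share sequence. The sign of KRT86 turned in 2 of 15 alternatives, and the list was chosen with earlier results known. The groups did not overlap, with Sh-YAP1 lower, for 3 of the 7 and for 14.7% of all genes. The median log2 fold change was -0.23 for the 7 keratins and 0.00 for all 14770 genes. The 10 keratins summed to 423 ± 20.6 FPKM in Sh-YAP1 (SD, n = 3), and the highest Sh-YAP1 library (440.1 FPKM) was below the lowest Sh-NC library (503 FPKM). KRT19 made up 46.1% of the difference of 114.1 FPKM between these sums, KRT8 16.97%, KRT18 16.2% and KRT80 15.6%.

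The balance of the partners was followed in each library. The ratio of KRT8 to KRT18 was 1.29, 1.33 and 1.06 in Sh-NC replicates 1 to 3 and 1.26, 1.33 and 1.19 in Sh-YAP1 replicates 1 to 3, so the groups overlapped for the main type II to type I pair. The ratio of KRT19 to KRT18, both type I, was 1.36, 1.57 and 1.35 in Sh-NC and 1.20, 1.18 and 1.15 in Sh-YAP1, without overlap. All type II keratins of the list over all type I keratins gave 0.793, 0.817 and 0.743 in Sh-NC and 0.820, 0.876 and 0.829 in Sh-YAP1, higher in Sh-YAP1 with no overlap but a narrow gap. KRT19 was the largest of the list in 3 of 3 Sh-NC libraries, and KRT8 was the largest in 3 of 3 Sh-YAP1 libraries. In Sh-YAP1 the ranges of KRT8 (125.6 to 142.9 FPKM) and KRT19 (119.99 to 126.97 FPKM) overlapped. The KRT8 value is also uncertain from shared sequence.

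The transcripts behind the gene values differed between keratins. The 10 genes have 76 transcript rows, of which 45 had a mean of at least 0.1 FPKM and were tested. None of them passed an adjusted p of 0.05 in limma. Of all 77655 transcript rows 0.0515% passed, 0.0322% lower and 0.0193% higher in Sh-YAP1. At an unadjusted p under 0.05 were 5 of the 45 rows and 6.12% of all rows. This count was 3 with the replicate block, without Sh-NC replicate 1 or without Sh-YAP1 replicate 1, and otherwise 5 to 7. The share of all rows at this threshold was not counted for these alternatives. The groups did not overlap for 6 rows that were lower and 2 that were higher in Sh-YAP1 (6.8% and 6.34% of all rows), and 27 of the 45 had a log2 fold change below 0 (51.6% of all rows). For KRT19, a single row held 98.4% of the FPKM. It was at 167.7, 189 and 163 FPKM in the Sh-NC replicates and at 118.8, 125.9 and 123.4 FPKM in the Sh-YAP1 replicates, so the lower KRT19 total in Sh-YAP1 lay nearly all in this row. Its adjusted p over all transcript rows was 0.291 (limma).

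For KRT80, which has 3 rows, the row with the highest mean held 13.2 of the 17.8 FPKM between the group means. It was at 12.8, 27.2 and 27.8 in Sh-NC and at 10.6, 9.19 and 8.44 FPKM in Sh-YAP1, without overlap. Its adjusted p over all transcript rows was 0.652 (limma). This row made up 38.1% to 53.6% of KRT80 in the Sh-NC libraries and 25.4% to 41.4% in the Sh-YAP1 libraries. The other rows of KRT80 overlapped between the groups. For KRT18 the rows also differed widely between libraries of a group, while the total was steady. Its leading row was at 77.8, 22.6 and 71.5 FPKM in the Sh-NC replicates, while the row with the next mean but one was at 11.04, 43.1 and 0.43 FPKM, and the total of KRT18 stayed between 122.7 and 125.9 FPKM. None of the 7 KRT18 rows separated the groups.

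**Figure D4:**
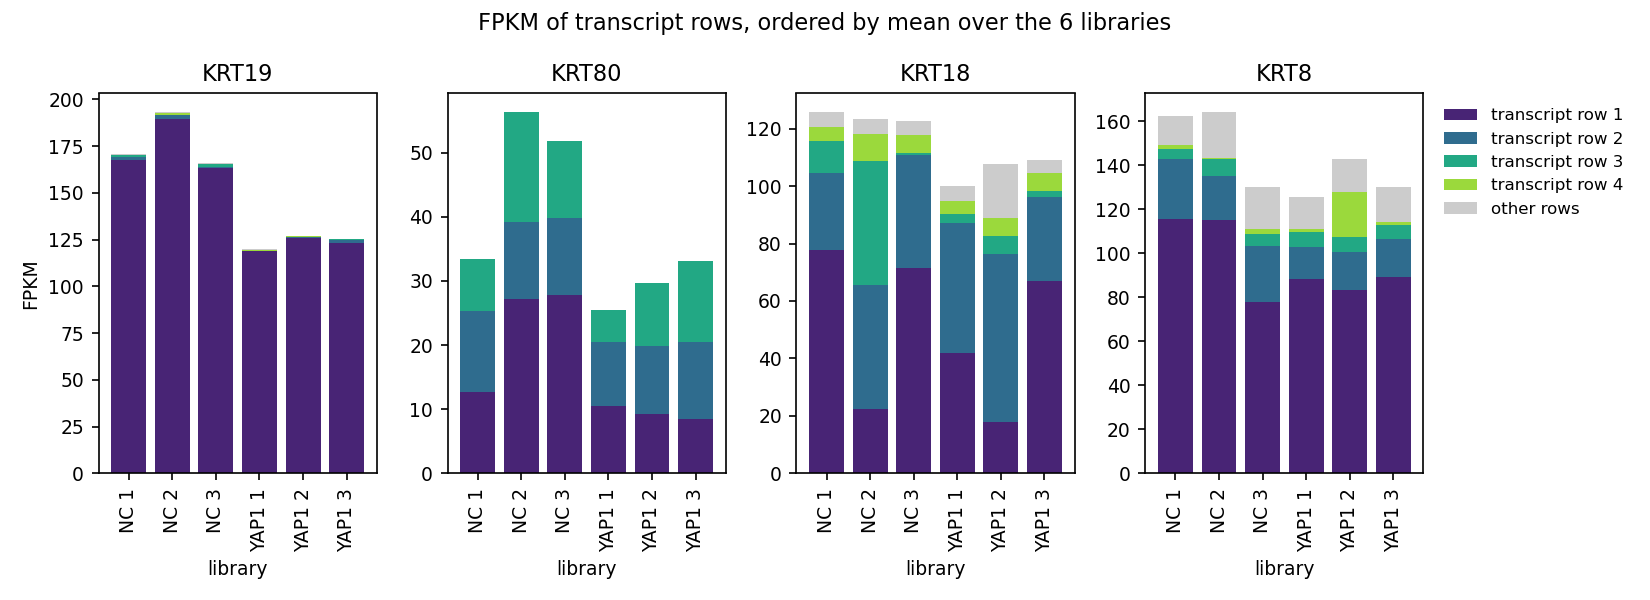
FPKM of the transcript rows of KRT19, KRT80, KRT18 and KRT8 (y axis, FPKM) stacked for each of the 3 Sh-NC (NC) and 3 Sh-YAP1 (YAP1) libraries, with rows ordered by their mean over the 6 libraries. KRT19 is nearly all row 1, row 1 of KRT80 is lower in all Sh-YAP1 libraries, and the rows of KRT18 trade places between libraries while the height of the bar changes little within a group.

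The places of the genes bear on these values. The type II keratins of the list lie on chromosome 12 and the type I keratins on chromosome 17, except KRT18, a type I gene on chromosome 12 beside KRT8. In GENCODE 29 (GRCh38) KRT19 lies on the minus strand of chromosome 17 from 41523617 to 41528308, and KRT80 on the minus strand of chromosome 12 from 52168996 to 52192000. KRT8 (minus strand, 52897187 to 52949954) and KRT18 (plus strand, 52948871 to 52952901) overlap by 1084 bases and share 525 exonic bases on opposite strands. KRT81 (minus strand, 52285913 to 52291534) lies within the span of KRT86 (plus strand, 52249300 to 52309163) without shared exonic bases. The strand setting of the quantification is not given in the sources used here, so reads from KRT8 and KRT18 in the shared exonic bases cannot be told apart.

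Pseudogenes of the simple keratins carried some signal. The 51 KRT8 pseudogenes summed to 9.27 ± 0.55 (Sh-NC) and 7.14 ± 0.45 FPKM (Sh-YAP1; SD, n = 3 each), the former 6.09% of KRT8 in Sh-NC. The 67 KRT18 pseudogenes summed to 1.65 ± 0.47 FPKM in Sh-NC, or 1.33% of KRT18. Adding them changed the log2 fold change of KRT8 from -0.19 to -0.20 and left that of KRT18 at -0.23.

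Promoter windows of 300 bases from RefSeq (GRCh38.p14) matched 2 of the 10 keratins, KRT8 and KRT5. The KRT8 window is shown since YAP1 has no DNA-binding domain and acts through TEAD factors, which bind the motif GGAATG. It lies on the minus strand at chr12:52926420-52926719 and covers the start at 52926469, with the motif in capitals.
KRT8: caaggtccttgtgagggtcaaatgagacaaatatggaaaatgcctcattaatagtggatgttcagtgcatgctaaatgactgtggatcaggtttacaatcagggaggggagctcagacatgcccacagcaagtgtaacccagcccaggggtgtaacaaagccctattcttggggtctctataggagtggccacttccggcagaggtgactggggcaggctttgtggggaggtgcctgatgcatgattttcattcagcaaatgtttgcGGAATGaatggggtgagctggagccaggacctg

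The motif begins 17 bases downstream of the start, and 1 of the 17 KRT8 transcripts of GENCODE 29 starts within the window. GGAATG was searched on both strands and is present in 14% of 35116 such windows. The AP-1 motif TGANTCA, searched likewise, is present in 7.71% of the windows and was not among the letters of the KRT8 window. The KRT5 window held neither motif. These matches are descriptions of letters, and KRT8 did not pass the test of expression.

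Other keratins were examined as a list of 45 genes, of which 29 were listed at 0 in all 6 libraries and 3 were tested. None of the 3 passed in limma after adjustment, and 1, KRT15, had an unadjusted p under 0.05, against 21.9% of all genes. KRT15, a type I keratin of basal epithelial cells, lies 1.09 kb from KRT19 on the same strand of chromosome 17 with no protein-coding gene between them. It was at 7.26, 8.28 and 8.20 in Sh-NC and at 3.75, 5.64 and 5.18 FPKM in Sh-YAP1, without overlap. Its log2 fold change was -0.62 (95% interval -0.96 to -0.28, adjusted p = 0.0706, limma and Benjamini-Hochberg).

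KRT10, a type I keratin of differentiating epidermis, was at 14.9, 12.8 and 48.4 in Sh-NC and at 12.4, 13.3 and 14.7 FPKM in Sh-YAP1. Sh-NC replicate 3 stood far above the other libraries, and the log2 fold change of -0.61 had a 95% interval from -1.72 to 0.49. KRT16, a type I keratin of stressed epidermis, was at 0.31 to 0.39 FPKM in Sh-NC and 0.41 to 0.93 FPKM in Sh-YAP1, without overlap. Of the 10 keratins tested in either list, only KRT16 had a log2 fold change above 0 (0.27, adjusted p = 0.315, limma). Its means were 0.35 (Sh-NC) and 0.65 FPKM (Sh-YAP1), so it passed the filter of 0.5 FPKM only through Sh-YAP1. KRT34, also of this list, was at 0.35 to 0.73 FPKM in Sh-NC and 0.25 to 0.31 FPKM in Sh-YAP1. KRT34 was under the filter and was not tested, so the signs counted depend on the filter.

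Genes for proteins that anchor keratins or build desmosomes and hemidesmosomes formed a list of 20, of which 14 were tested and 1 passed, higher in Sh-YAP1, against 1.75% of all genes called higher. It was PERP, which encodes a membrane protein of desmosomes. PERP rose from 12.96, 13.1 and 13.6 FPKM in the Sh-NC replicates to 19.9, 20.4 and 20.9 FPKM in the Sh-YAP1 replicates. Its log2 fold change was 0.59 (adjusted p = 0.0127, limma and Benjamini-Hochberg), and the call was kept in 2 of 6 cases with a library left out and was lost with the replicate block (adjusted p = 0.118, limma). Of the 14, 4 had a log2 fold change below 0, against 50.2% of all genes, and the median was 0.10. The 3 highest genes of the list overlapped between the groups. PLEC (plectin, which links keratins to hemidesmosomes) had means of 153 ± 10.7 (Sh-NC) and 156.7 ± 3.21 FPKM (Sh-YAP1). ITGB4, the integrin of hemidesmosomes, was at 81.5 ± 19.3 and 107.8 ± 10.2 FPKM, and MACF1, which links actin and microtubules, at 65.3 ± 11.3 and 80.8 ± 11.3 FPKM (SD, n = 3 each).

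Of 15 genes of other intermediate filaments, 8 were tested and 2 passed, both higher in Sh-YAP1, while 1.75% of all genes were called higher. NES, which encodes nestin, rose from 4.49 to 5.01 FPKM in the Sh-NC libraries to 6.62 to 7.28 FPKM in the Sh-YAP1 libraries (log2 fold change 0.46, adjusted p = 0.0397, limma). BFSP1, which encodes the lens filament protein filensin, rose from 9.66 to 9.97 FPKM to 12.8 to 14.4 FPKM (log2 fold change 0.44, adjusted p = 0.0349, limma). Neither call was kept when any library was left out or with the replicate block (adjusted p 0.161 for NES and 0.152 for BFSP1, limma). VIM, the main filament protein of these cells, was at 2188, 1645 and 2303 in Sh-NC and 1805, 1909 and 2127 FPKM in Sh-YAP1, with a log2 fold change of -0.06 (95% interval -0.40 to 0.28). The lamin genes LMNA and LMNB2 had log2 fold changes of 0.01 and -0.01 with overlapping groups.

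Of 24 transcription and splicing factors known to act on keratin or other epithelial genes, 16 were tested and 1 passed, higher in Sh-YAP1, against 1.75% of all genes called higher. TFAP2C, which encodes the factor AP-2 gamma, rose from 16.0 to 17.1 FPKM in the Sh-NC libraries to 21.2 to 22.7 FPKM in the Sh-YAP1 libraries (log2 fold change 0.40, adjusted p = 0.0354, limma). This call was lost in each case with a library left out and with the replicate block (adjusted p = 0.157, limma). FOSL1 and JUN, subunits of AP-1, were at 121.6 ± 10.8 and 40.3 ± 1.77 in Sh-NC and at 119.2 ± 5.06 and 40.9 ± 1.44 FPKM (SD, n = 3) in Sh-YAP1, with overlap. NFE2L2, which encodes NRF2, was at 12.4 FPKM in Sh-YAP1 replicate 2 and between 37.6 and 47.6 FPKM in the other libraries.

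**Figure D5:**
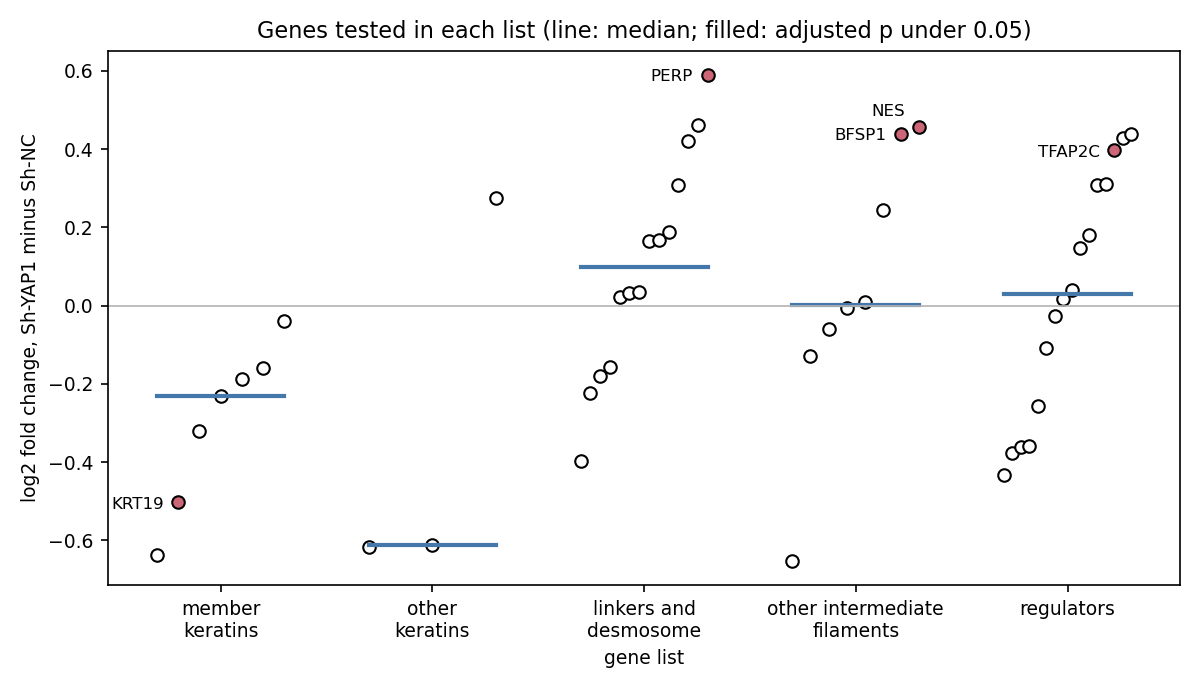
Log2 fold change, Sh-YAP1 minus Sh-NC, of each gene tested in the 5 gene lists (points), with the median of each list as a line. KRT19 is the filled point below 0, and PERP, NES, BFSP1 and TFAP2C are the filled points above 0. The medians are -0.23 for the 7 member keratins and -0.61 for the 3 other keratins. They are 0.10, 0.00 and 0.03 for the linker, other filament and regulator lists. The median of -0.61 is the value of KRT10 and rests on Sh-NC replicate 3. KRT10 was at 48.41 FPKM there and at 12.45 to 14.87 FPKM in its other libraries.

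Markers of other cell types were low in both groups. The 6 fibroblast markers summed to 9.04 to 12.2 FPKM in Sh-NC and 5.33 to 11.4 FPKM in Sh-YAP1, with none at 0 in all libraries. Of the leukocyte markers, PTPRC was at 0 to 0.04 FPKM, CD14 at 0.32 to 0.84 FPKM and CD3E at 0 in the 6 libraries. None of the 3 fibroblast markers tested passed. COL1A2, a collagen gene, was at 0.97 to 1.96 FPKM in the Sh-NC libraries and 0 to 0.72 FPKM in the Sh-YAP1 libraries. It was lower without overlap, as were 14.7% of all genes. Its Sh-YAP1 mean was 0.30 FPKM, so it passed the filter of 0.5 FPKM only through Sh-NC. COL1A1 and PDGFRB overlapped between the groups, with log2 fold changes of -0.11 and -0.09. These leukocyte markers were too low to test. The part of these markers in the keratin values was not tested.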

How the data were processed

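The authors deposited FPKM values, 1 per transcript row and library with 2 decimals, for 229420 rows. The submitters' processing notes name Bowtie 0.12.2, HISAT2 2.0 and the build hg19, and the quantifier and annotation are not given in the sources used here. Rows were summed to 60612 genes, 60401 of which had a symbol. Positions are from GENCODE 29 on GRCh38.

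The groups were compared on log2(FPKM + 1) with limma 3.58.1 in R 4.3.3 (mean-variance trend, condition only, Benjamini-Hochberg adjustment) over 14770 genes averaging 0.5 FPKM or more in the 6 libraries and 77655 transcript rows averaging 0.1 or more. Other steps used Python 3.11.15. The code was tested on simulated data. No replicate block was used. The keratins and gene lists were chosen with earlier results of these data known. Named were all 10 keratins, YAP1, called genes and the 3 highest of each other list, and other keratins that were tested. KRT34 was named beside KRT16 as a keratin under the filter. Marker genes were named from the marker lists. Alternatives covered pseudocounts of 0.1 and 0.01, scaling, trend, filters, the replicate block, left-out libraries and shared copies, and for transcript rows a pseudocount of 0.1, quantile normalization, the block and left-out libraries. A sequence stretch and a marker gene are not reported here.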

Additional observations from a re-analysis of the deposited data

How the results depend on the processing

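Depth is unknown and 3 libraries per group limit each test. Pseudocounts of 0.1 and 0.01, quantile normalization, median centring, a filter at 1 FPKM and no trend kept the KRT19 call, and the log2 fold changes of KRT7, KRT8, KRT18, KRT80 and KRT81 stayed below 0 and uncalled in all alternatives.

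With no filter, where more genes enter the adjustment, 232 genes were called in place of 499, with 0 keratins, 0 other filament genes and 0 regulators (limma; 3, 4 and 5 at an unadjusted p under 0.05), and KRT19 stayed at -0.50 uncalled. Of all 30501 genes with no filter, 3924 had an unadjusted p under 0.05 (limma). With no trend, 0 regulators were called (6 unadjusted, and 3192 of all 14770 genes). With the replicate block, 1 gene was called, and 0 keratins, 0 linker, 0 other filament and 0 regulator genes (3, 3, 4 and 7 unadjusted), with KRT19 at -0.50. Of all 14770 genes, 2779 had an unadjusted p under 0.05 with the block (limma). The replicate numbers were not taken to pair the libraries, since the deviations of same-numbered libraries correlated at -0.029, 0.062 and 0.0042.

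With each library left out in turn, 78 to 171 genes were called, 0 keratins (2 to 5 unadjusted), 0 to 1 linker genes, 0 other filament genes (3 to 4 unadjusted) and 0 regulators (4 to 5 unadjusted). Of all 14770 genes, 2624 to 3085 had an unadjusted p under 0.05 with a library left out (limma). In these fits KRT19 ranged from -0.55 to -0.44 and KRT86 from -0.075 to 0.018. Summed over transcript rows averaging 0.1 FPKM or more, KRT86 reversed to 0.013 and its Sh-NC level was 1.00 in place of 1.17 FPKM. Alternatives for levels and ratios were added after the values were seen. The causes were not tested.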
